A study of Mus musculus with 96 samples.

Results

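Cells of the mouse macrophage-like line RAW 264.7 received lipopolysaccharide (LPS) together with 2-methyl-thio-ATP (2MA) and were collected after 2 h, and their RNA was set against RNA of untreated cells on 2-colour arrays. The 6 arrays of this joint treatment, of 96 in the study, were taken by their titles: sets 1 to 3, each hybridised in 2 dye orders. Cells in this group received 100 ng LPS, for which no volume is stated, with 100 pM LPS-binding protein and 500 uM 2MA. They are compared here with cells given LPS alone or 2MA alone for 2 h at the same doses, with the joint treatment at 1 h and 4 h, and with untreated cells, 6 arrays in each treated group. No genotype, mutant or transgene is named for any group, and the single cell line limits the model.

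LPS, a component of the outer membrane of Gram-negative bacteria, is sensed by Toll-like receptor 4, whose adaptors lead to NF-kB, to MAP kinases and, through interferon beta, to interferon-stimulated genes. 2MA is an analogue of ATP that acts on P2 purinergic receptors, some of which raise cytosolic calcium, and calcium in turn activates the phosphatase calcineurin and NFAT transcription factors. Macrophages meet both kinds of signal where bacteria and damaged cells occur together.

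Values below are log2 ratios of treated to untreated RNA, averaged over the 2 dye orders of a set, so that each group has 3 set values. Means are given ± SD over 3 sets and differences ± SE. A gene is said to have risen, fallen or differed only where limma's test, run over 11593 genes and adjusted by Benjamini-Hochberg, gave an adjusted p under 0.05. Of those 11593, 1838 are single probes without a gene name here, counted with the rest. Nothing in the labels calls the sets separate cultures, so the p-values reflect how sets differ, which could be technical alone. Whether groups of one set and time share the same untreated RNA is not stated either. On the 6 arrays, 14649 to 14953 of 16281 probes held a value, and the small number of arrays limits the precision. Across the 11593 genes, the 3 sets of the joint treatment correlated at 0.639 to 0.782 with each other, those of LPS at 0.605 to 0.698 and those of 2MA at -0.33 to 0.552, as a description of data that share an array design. The sign of the 2MA ratios rests on the dye labels, and a comparison with 2MA rests on sets that resemble each other less than those of the joint treatment or of LPS.

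Ratios give no absolute level, so the cell type could be checked only through changes. Of 8 macrophage markers 6 were measured, of which Spi1, the transcription factor PU.1, rose (0.58) and Csf1r, the receptor for macrophage colony-stimulating factor, and the Fc receptor Fcgr1 fell (-0.40 and -0.38). Spi1 was not called without set 1 (0.33) or set 3 (0.50), Csf1r without set 1 (-0.35) or set 2 (-0.36) and Fcgr1 without set 1 (-0.31). Lyz2 lacked enough values and Itgam had no named probe. None of the 19 measured markers of T cells, B cells, fibroblasts, epithelium or endothelium passed the test, and their responses lay between -0.15 and 0.29. In RNA of a whole culture, fewer cells expressing a gene and less of its RNA per cell cannot be told apart.

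After 2 h, the joint treatment raised cytokine, NF-kB feedback, immediate-early and interferon-stimulated transcripts and lowered a smaller set of genes by 2-fold or more. In all 2063 genes changed against untreated cells (17.8% of those tested), 993 upward (8.57%) and 1070 downward (9.23%). By at least 2-fold, 258 rose and 64 fell. The 2063 became 3096 with sets as a replicate block (1436 up, 1660 down), 948 when only this group's arrays were fitted (546 up, 402 down) and 1383 without set 2 (729 up, 654 down), so neither the total nor the excess of falls is steady.

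**Figure D1:**
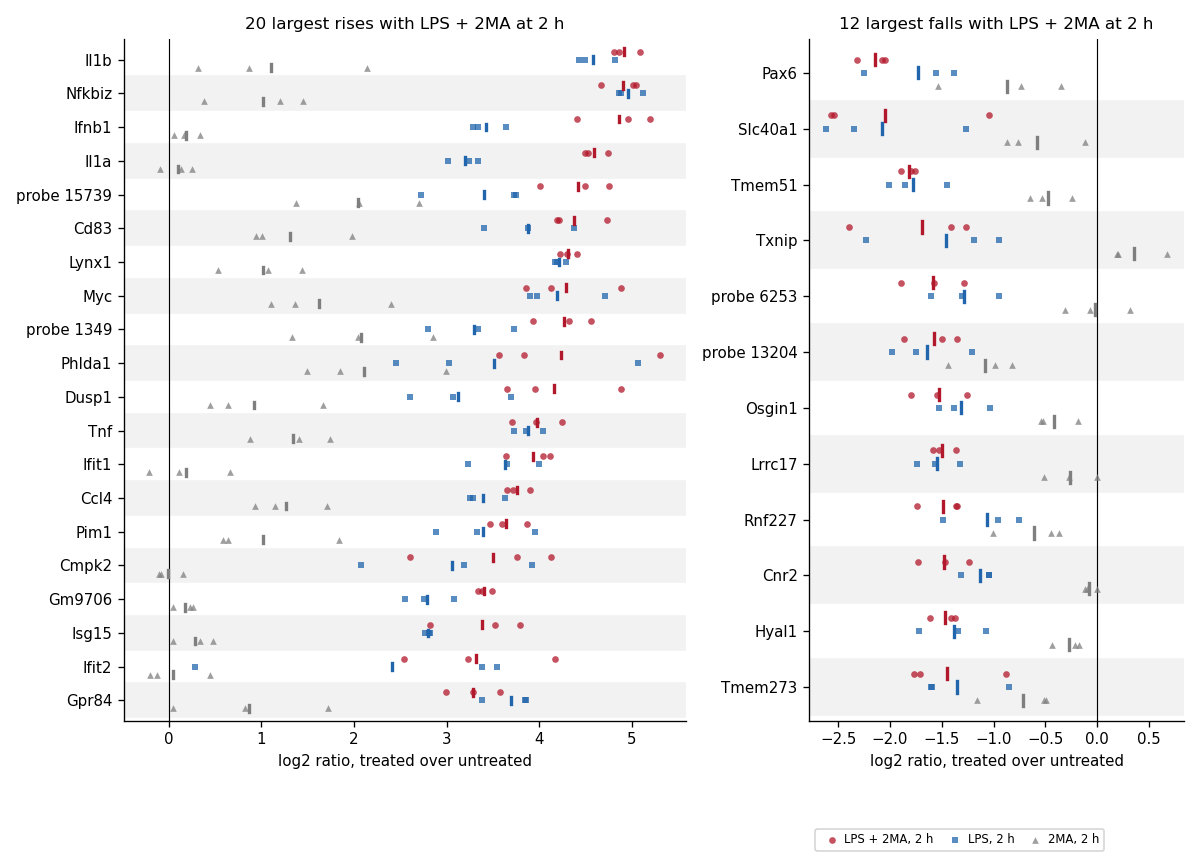
Log2 ratio of treated to untreated RNA for the 20 genes that rose most (left) and the 12 that fell most (right) after 2 h of LPS plus 2MA, chosen on the responses shown. Points are set values of LPS plus 2MA, LPS and 2MA, and bars are means of 3 sets. LPS plus 2MA and LPS lie close for most genes, while Ifnb1 and Il1a lie higher with LPS plus 2MA in all 3 sets.

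Among genes of Toll-like receptor 4 signalling, Tlr4 itself fell and Tlr2 rose. Tlr4 had -0.65, -0.18 and -0.79 in the 3 sets with LPS plus 2MA, against -0.71, -0.73 and -0.88 with LPS. Every set of both treatments lay below 0, the groups overlap, and the fall of Tlr4 with LPS plus 2MA was not called without set 3 (-0.41). Tlr2, the receptor for bacterial lipopeptides, rose by 2.11 ± 0.20 and Map3k8, a kinase upstream of ERK, by 2.01. Of 14 measured genes of the list, of 20 listed, 5 rose and 1 fell, with a median response of 0.13 beside 0.00 over all genes.

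The NF-kB system responded through its feedback inhibitors as well as its subunits. Nfkbiz, an atypical nuclear IkB protein needed for secondary NF-kB targets, had 5.01, 5.04 and 4.67 with LPS plus 2MA, against 4.86, 5.12 and 4.88 with LPS and 1.20, 1.45 and 0.38 with 2MA. The joint treatment and LPS overlap, and both lie above 2MA in each set. Its mean response was 4.91 ± 0.21 (adjusted p = 5.83e-18). Tnfaip3, which encodes the ubiquitin-editing inhibitor A20, rose by 2.49 ± 0.09, the inhibitor Nfkbie by 2.88 and the adaptor Traf1 by 2.96. The subunits Nfkb2, Relb, Rel and Rela rose by 1.95, 1.91, 1.72 and 0.86. In total 11 of 13 measured genes rose and none fell (median 1.95). Of 18 listed members, Nfkbia lacked enough values to be tested and the other 4 had no named probe.

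Immediate-early transcription factors were raised at unequal levels and with unequal spread between sets. Myc, which drives growth and metabolism, had 4.89, 3.86 and 4.13 with LPS plus 2MA, against 4.70, 3.90 and 3.98 with LPS. These values overlap. Egr2 and Egr1, zinc-finger factors induced by MAP kinases, were highest in set 3: Egr2 had 2.17, 2.19 and 3.97 with LPS plus 2MA and 1.52, 0.98 and 2.47 with LPS. Egr1 had 0.50, 0.82 and 2.98 with LPS plus 2MA, against -0.12, -0.58 and 2.55 with LPS. Set 3 is also the highest with LPS, and the mean Egr1 response of 1.43 was not called without set 3 (0.66). Atf3, a repressor of cytokine genes, rose by 2.22 and Jund by 2.13, whereas Jun fell by 0.87. Of 21 measured factors 15 rose and 1 fell (median 1.42).

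Feedback regulators of signalling and of mRNA decay rose in part by large amounts. Dusp1, a phosphatase that inactivates p38 and JNK, had 3.66, 3.95 and 4.88 with LPS plus 2MA, against 3.06, 2.60 and 3.70 with LPS and 1.66, 0.64 and 0.45 with 2MA. Each set was higher with the joint treatment than with LPS, although the groups overlap by a narrow margin. Rgs16, an inhibitor of G protein signalling, rose by 3.21 and Gem, a small GTPase that restrains calcium channels, by 1.81, while Rgs14 fell by 1.02. Zfp36, which encodes tristetraprolin and promotes decay of cytokine mRNAs, rose by 2.75, the kinase gene Pim1 by 3.64 ± 0.20 and Gadd45b by 2.94. Of 13 measured MAP kinase and G protein feedback genes 6 rose and 1 fell (median 0.32), and of 13 mRNA decay and early feedback genes 9 rose and 1 fell (median 2.16).

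Interleukin 1 genes led the cytokines. Il1b had 5.09, 4.86 and 4.80 with LPS plus 2MA, against 4.81, 4.50 and 4.43 with LPS and 2.14, 0.86 and 0.32 with 2MA. Il1a had 4.74, 4.49 and 4.53 with LPS plus 2MA, against 3.34, 3.24 and 3.01 with LPS and 0.25, -0.09 and 0.13 with 2MA. For Il1a the 3 groups do not overlap, and for Il1b the joint treatment and LPS overlap by a narrow margin. Tnf, the early inflammatory cytokine, rose by 3.97 ± 0.27 with LPS plus 2MA, beside 3.87 ± 0.16 with LPS. Il6 rose by 2.51 ± 0.26, the granulocyte factor Csf3 by 2.88 and Il15 by 1.97. Il10, an anti-inflammatory cytokine, had 1.45, 1.33 and 2.22 with LPS plus 2MA, against 2.00, 1.92 and 2.96 with LPS. It was lower with the joint treatment in each set, and the groups overlap. Altogether 16 of 19 measured cytokines rose and none fell (median 1.64).

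Of the chemokines, 6 of 12 measured rose and none fell (median 0.37). Ccl4, a macrophage inflammatory protein, rose by 3.75, Ccl7, which attracts monocytes, by 3.25 ± 0.09 and Ccl22, which attracts regulatory T cells, by 2.18. Ccl22 had 2.29, 2.13 and 2.11 with LPS plus 2MA, against 1.38, 1.54 and 1.56 with LPS and 0.14, -0.02 and 0.16 with 2MA, with no overlap between the groups. Ccl7 is the mean of 3 probes, of which 1 stayed near 0 (0.04) while the others averaged 4.80 and 4.92. Chemokine probes without enough values to test were those for Cxcl2, Cxcl10, Ccl2 and Ccl3 among others.

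Interferon beta and its targets were the list with the highest share of risen members. Ifnb1, which encodes interferon beta, had 4.41, 4.96 and 5.20 with LPS plus 2MA, against 3.64, 3.33 and 3.28 with LPS and 0.16, 0.06 and 0.34 with 2MA. The lowest joint set lies above the highest LPS set. Ifit1, whose protein binds viral RNA, rose by 3.93 ± 0.26 and Isg15, a ubiquitin-like modifier, by 3.38. Ifit2 was uneven over sets, at 3.23, 4.17 and 2.54 with LPS plus 2MA, against 3.54, 3.38 and 0.29 with LPS. Its lowest value in both groups is that of set 3. The transcription factor Irf1 rose by 2.84 ± 0.10 and Irf7 by 0.60. Of 27 measured genes of type I interferon responses, of 42 listed, 24 rose and none fell (median 1.55).

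The start regions of 3 responding genes are printed because the factors named above bind motifs of known letters. They run from 250 bases before to 50 bases after the annotated start, 5′ to 3′ on the gene's strand, from RefSeq (GRCm38.p6). Ifit1 lies at chr19:34640639-34640938 on the plus strand, and its capitals mark 2 interferon-response matches (GAAA, any 2 bases, GAAA, here on the opposite strand and so read as TTTC, 2 bases, TTTC). Ifnb1 lies at chr4:88522745-88523044 on the minus strand, with capitals on 2 kappaB-type matches (GGG, any 5 bases, CC, or the reverse complement). It was also searched for the interferon-response motif and held no match. Rcan1, a calcineurin regulator described below, is shown at 1 of its annotated starts, chr16:92400029-92400328 on the minus strand, with capitals on 2 NFAT-type matches (GGAAAA or its reverse complement TTTTCC) and 1 AP-1 match (TGANTCA). It was chosen for these matches, and the window of the other start (chr16:92466120-92466419) held 0 of either. Acp5, a gene described below, was searched for the NFAT-type and AP-1 motifs at 3 annotated starts and is not printed. The window of 1 start held 1 NFAT-type match, the other windows held none, and no Acp5 window held an AP-1 match.
Ifit1: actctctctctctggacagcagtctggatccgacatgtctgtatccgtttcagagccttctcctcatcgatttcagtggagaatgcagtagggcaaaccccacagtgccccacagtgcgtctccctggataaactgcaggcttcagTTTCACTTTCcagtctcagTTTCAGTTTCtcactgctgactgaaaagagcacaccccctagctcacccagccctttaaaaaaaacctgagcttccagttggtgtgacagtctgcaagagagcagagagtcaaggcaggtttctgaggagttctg
Ifnb1: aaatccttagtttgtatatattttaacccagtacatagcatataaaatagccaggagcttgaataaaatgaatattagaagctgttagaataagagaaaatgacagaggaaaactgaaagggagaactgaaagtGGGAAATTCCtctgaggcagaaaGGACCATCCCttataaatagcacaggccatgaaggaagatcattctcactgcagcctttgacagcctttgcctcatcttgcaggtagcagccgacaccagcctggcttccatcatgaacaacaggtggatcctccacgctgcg
Rcan1: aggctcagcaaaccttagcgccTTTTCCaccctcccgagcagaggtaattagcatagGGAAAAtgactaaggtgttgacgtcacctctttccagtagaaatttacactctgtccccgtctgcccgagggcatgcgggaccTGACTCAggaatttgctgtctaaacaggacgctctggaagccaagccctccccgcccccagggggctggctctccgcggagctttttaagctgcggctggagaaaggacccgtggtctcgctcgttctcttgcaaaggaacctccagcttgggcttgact

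Searched on both strands, the interferon-response motif occurred in the windows of 11 of the 20 risen interferon-response genes that had one, and in 3.99% of 27025 genes. The kappaB-type letters were present for 7 of 9 risen NF-kB genes and 7 of 10 risen cytokines with a window, beside 53.5% of all genes. They were also present for 6 of 6 risen calcium responsive genes with a window, of 8 risen. The same held for 15 of 20 risen interferon-response genes with a window. Windows on 1 chromosome were left out of the search, so not every gene was covered. GGAAAA was found for 2 of 6 risen calcium responsive genes and 10 of 20 risen interferon-response genes, beside 26.1% of all genes, and TGANTCA for 1 of 6 and 1 of 20, beside 8.97%. The short motifs can overlap one another. A match describes letters in a window and is neither a shown binding site nor a cause of a response.

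Genes of antigen presentation and co-stimulation rose with them. Cd83, found on the surface of mature dendritic cells, had 4.73, 4.21 and 4.20 with LPS plus 2MA, against 4.37, 3.87 and 3.40 with LPS, and the groups overlap. Cd40, a co-stimulatory receptor, rose by 2.84, the checkpoint ligand Cd274 by 1.86 and the peptide transporter Tap1 by 0.75. Of 17 measured genes 10 rose and none fell (median 0.39). Among genes of cell death and the inflammasome 10 of 16 rose and 1 fell (median 0.67), with survival genes Bcl2a1a (2.30) and Cflar (2.15) beside the pro-apoptotic Bcl2l11 (2.20) and Fas (2.29), and Bcl2 fell by 0.48. The Bcl2 call was lost without set 2 (-0.35).

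Genes responsive to calcium, calcineurin and cAMP were raised in part, and most purinergic receptors and ectoenzymes did not pass the test. Rcan1, a feedback inhibitor of calcineurin, had 2.68, 3.31 and 3.10 with LPS plus 2MA, against 2.02, 1.93 and -0.60 with LPS and 2.77, 0.91 and 2.00 with 2MA. It exceeded LPS in each set, while set 3 of LPS stands far below the other sets. Pde4b, which degrades cAMP, rose by 3.07, Ocstamp, which is needed for cell fusion in osteoclasts, by 3.02 and Nfatc1 by 1.00 ± 0.03. Of 20 measured genes 8 rose and 1, Nfatc3, fell (median 0.21), although Nfatc3 was not called without set 1 (-0.36), set 2 (-0.38) or set 3 (-0.41). Of 16 measured purinergic receptors and ectoenzymes 1 rose and 2 fell (median -0.00474, which turns positive when arrays are centred on nonzero values). Over all genes the shares were 8.57% and 9.23%, close to these counts. P2ry2, a receptor for ATP and UTP, rose by 0.57, while the adenosine receptor gene Adora3 fell by 0.38 and Panx1, an ATP release channel, by 0.70. Adora3 lost its call without set 1 (-0.31) or set 2 (-0.37) and Panx1 without set 2 (-0.52). P2rx7, the ATP-gated channel of macrophages, was at -0.26 and P2rx4 at 0.24, and neither passed the test. With sets as a block, 5 purinergic genes fell, beside 1660 of all 11593 genes.

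Metabolic effectors changed in part. Odc1, the first enzyme of polyamine synthesis, rose by 2.53 ± 0.20, Gch1, which makes the cofactor of nitric oxide synthase, by 1.11 and Nos2, that synthase, by 0.48 at this time, while the haem oxygenase Hmox1 fell by 0.71. Of 16 measured genes 6 rose and 1 fell (median 0.18). The Nos2 call was lost without set 1 (0.41) or set 2 (0.40) and that of Hmox1 without set 2 (-0.48). Among lipid mediator genes, Ptgs2, which encodes cyclooxygenase 2, rose to 2.67 and 2.86 in the 2 sets with a value, and Ptger2, a prostaglandin E2 receptor, by 1.14, while Hpgds fell by 0.75 and Pla2g4a by 0.35 (not called without set 1, -0.26). Those were the 4 of 12 lipid genes that changed, beside 17.8% of all genes.

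Stress programmes showed no common direction. Of 22 genes of the unfolded protein and amino acid response 5 rose and 1 fell (median -0.01), led by the cystine transporter Slc7a11 (1.03), and the rises were 2 without set 1 and 3 without set 3. Of 13 Nrf2 and oxidative stress genes 3 rose and 5 fell (median -0.23), and the falls were 3 without set 2 and 3 without set 3. Among those falls were Gclc (-0.93), which limits glutathione synthesis, and Osgin1 (-1.53). Dnajb4 (2.00) was the sole one of 11 heat shock genes to change. Of 15 glycolysis and hypoxia genes 3 rose and 2 fell. In cholesterol genes 2 of 12 rose and 2 fell, among which the efflux transporter Abcg1 fell by 1.27. Over all genes 8.57% rose and 9.23% fell, and the counts of these small lists are a description only. None of 8 housekeeping genes passed the test, with values from -0.09 to 0.12.

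Among the largest falls, Slc40a1, the iron exporter ferroportin, had -2.57, -2.54 and -1.04 with LPS plus 2MA, against -2.34, -2.61 and -1.27 with LPS and -0.87, -0.76 and -0.12 with 2MA. Set 3 is the weakest in each of the 3 groups, and the joint treatment overlaps LPS. Pax6, a transcription factor known from eye development, had -2.32, -2.05 and -2.08 with LPS plus 2MA, against -2.25, -1.55 and -1.38 with LPS, and the groups overlap. Txnip, an inhibitor of thioredoxin and glucose uptake, fell by 1.69 ± 0.61 and Cnr2, a cannabinoid receptor, by 1.47. Of 11 measured genes listed as repressed by LPS 6 fell and 2 rose (median -0.40). That list was chosen with earlier results of these data known, so its falls are not an independent result. Of 29 measured cell cycle genes 11 fell and 2 rose (median -0.26), among them E2f1 (-0.50), Cdc6 (-0.80), which licenses replication, and cyclin E1, Ccne1 (-0.76). That count was 7 without set 1, 7 without set 2, and 18 with sets as a block. Of 34 macrophage surface and identity genes 10 rose, led by the lectin Clec4e (2.40), and 4 fell, beside 8.57% and 9.23% of all genes. The rises were 6 without set 2, and the falls were 1 without set 1.

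**Figure D2:**
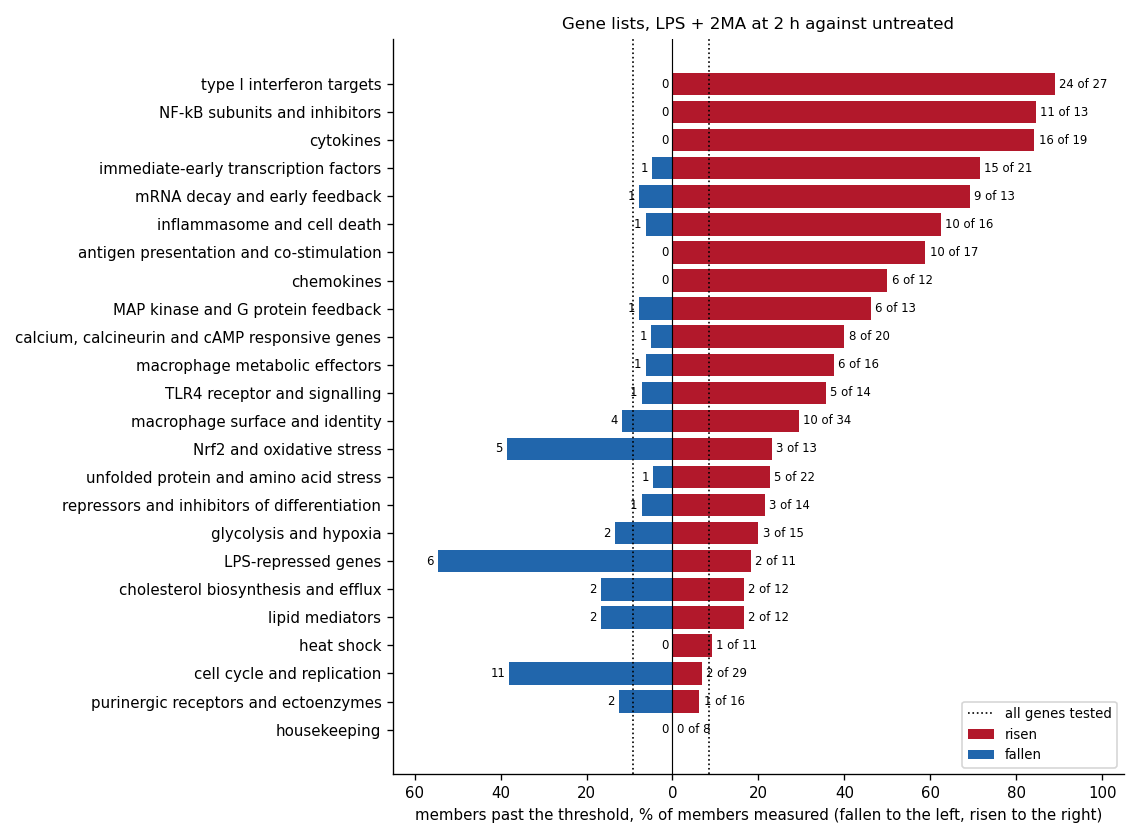
Shares of measured members of each gene list that rose or fell after 2 h of LPS plus 2MA against untreated cells. The lists of NF-kB genes (11 of 13), type I interferon targets (24 of 27) and cytokines (16 of 19) stand far above the 8.57% of all tested genes that rose. Lists were chosen with earlier results of these data known, so the shares are a description only.

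Set against LPS alone, the added 2MA raised 11 genes and lowered none (0.0949% of those tested), 5 of the 11 by at least 2-fold. These include the phosphatase gene Acp5, the transcription factors Egr3 and Nfatc1, the cytokine gene Tslp and the proteoglycan gene Srgn. At an unadjusted p under 0.05 the number was 556 of 11593. That is no more than the share of 0.05 expected where no gene differs. Sets of the same number vary together in the 2 groups (correlations of 0.15 to 0.505), and with sets as a replicate block 60 genes differed, 48 upward and 12 downward. Fitted on the 2 groups alone, 2 genes differed, of which 1, probe 6463, is among the 11.

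Acp5, the tartrate-resistant acid phosphatase of osteoclasts and activated macrophages, had 2.23, 1.79 and 1.82 with LPS plus 2MA, against 0.93, 0.52 and 0.32 with LPS and 0.50, 0.09 and 0.32 with 2MA. All 3 joint sets lie above every set of either ligand alone. The difference from LPS was 1.36 ± 0.17 (limma, adjusted p = 4.82e-06) and was called without each set in turn, but not when the 2 groups were fitted alone (adjusted p = 0.0925). Probe 6463, which has no gene name here, differed most, with 2.60, 2.89 and 3.94 under LPS plus 2MA, against 0.23, 0.55 and 0.72 under LPS and 2.05, 0.53 and 0.95 under 2MA. Its difference was 2.65 ± 0.30 (adjusted p = 9.21e-07), also called without each set and with the 2 groups fitted alone.

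Egr3, an early growth response factor, had 1.78, 2.09 and 2.54 with LPS plus 2MA, against 0.93, 0.67 and 0.55 with LPS and 2.91, 0.96 and 1.32 with 2MA. The joint treatment lies above LPS in every set but within the range of 2MA. Nfatc1, the calcineurin-dependent factor that directs osteoclast formation, had 1.00, 1.03 and 0.98 with LPS plus 2MA as the mean of 2 probes. With LPS it had 0.39, -0.03 and 0.09 and with 2MA 0.84, 0.30 and 0.53, with no overlap between the joint treatment and either ligand. Of the 2 probes, 1 taken alone did overlap 2MA, with 0.88, 0.65 and 0.84 under LPS plus 2MA against 0.79, 0.06 and 0.48. The differences from LPS were 1.42 ± 0.30 for Egr3 (adjusted p = 0.0436) and 0.85 ± 0.16 for Nfatc1 (adjusted p = 0.0135). Neither call was steady: Egr3 lost it without set 1 (1.70), set 2 (1.42) or set 3 (1.13), and Nfatc1 without set 2 (0.74) or set 3 (0.83). Fitted alone by limma, neither Nfatc1 probe was called against LPS (0.76, adjusted p = 0.28, and 0.94, adjusted p = 0.0525).

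Tslp, thymic stromal lymphopoietin, had 2.26, 2.47 and 1.24 with LPS plus 2MA, against 0.77, 1.27 and 0.74 with LPS and -0.12, 0.17 and -0.04 with 2MA. The lowest joint set, set 3, falls just inside the range of LPS. Srgn, the core protein of the granule proteoglycan serglycin, had 2.06, 2.17 and 1.59 with LPS plus 2MA, against 1.09, 1.05 and 0.88 with LPS and 1.14, 0.43 and 0.24 with 2MA, with the joint treatment above both. Differences from LPS were 1.06 ± 0.18 for Tslp (adjusted p = 0.00285) and 0.94 ± 0.18 for Srgn (adjusted p = 0.00891). The Tslp call was lost without set 1 (0.85) and the Srgn call without set 1 (0.92) or set 2 (0.84).

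The remaining 5 differences were smaller or rest on fewer sets. H1f2, a linker histone, had 0.24, 0.28 and 1.36 with LPS plus 2MA, against -0.26, -0.67 and -0.38 with LPS, and its difference of 1.06 was not called without set 2 (1.12) or set 3 (0.72). H2-Q5, of the closely similar H2-Q class I family, differed by 0.70, carried by 2 of its 4 probes, since the others alone gave 0.17 and 0.03, and the call was lost without set 3 (0.51). Dbi, which binds acyl-CoA, differed by 0.64 and lost the call without set 1 (0.45) or set 2 (0.66). Serpind1, an inhibitor of thrombin named here as the eleventh gene after its value was seen, differed by 0.62, and probe 991, which matches several genes, by 0.77. Probe 991 was not called without set 1 (0.89), set 2 (0.77) or set 3 (0.64).

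Several genes with larger differences passed the test only where sets were compared within the same number. With sets as a block, Rcan1 exceeded LPS by 1.91 (adjusted p = 0.0286, and 0.1 without the block), Ifnb1 by 1.44 (0.03 and 0.262), Nr4a1, an orphan nuclear receptor, by 1.43 (0.03 and 0.202), Il1a by 1.39 (0.0374 and 0.317) and the growth factor Bmp2 by 1.22 (0.015 and 0.0749). Nr4a1 had 0.92, 2.49 and 1.70 with LPS plus 2MA, against 0.27, 0.29 and 0.25 with LPS and 2.10, 0.55 and 0.33 with 2MA. The joint sets do not overlap those of LPS but do overlap those of 2MA. These genes were picked for mention after their values were seen.

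**Figure D3:**
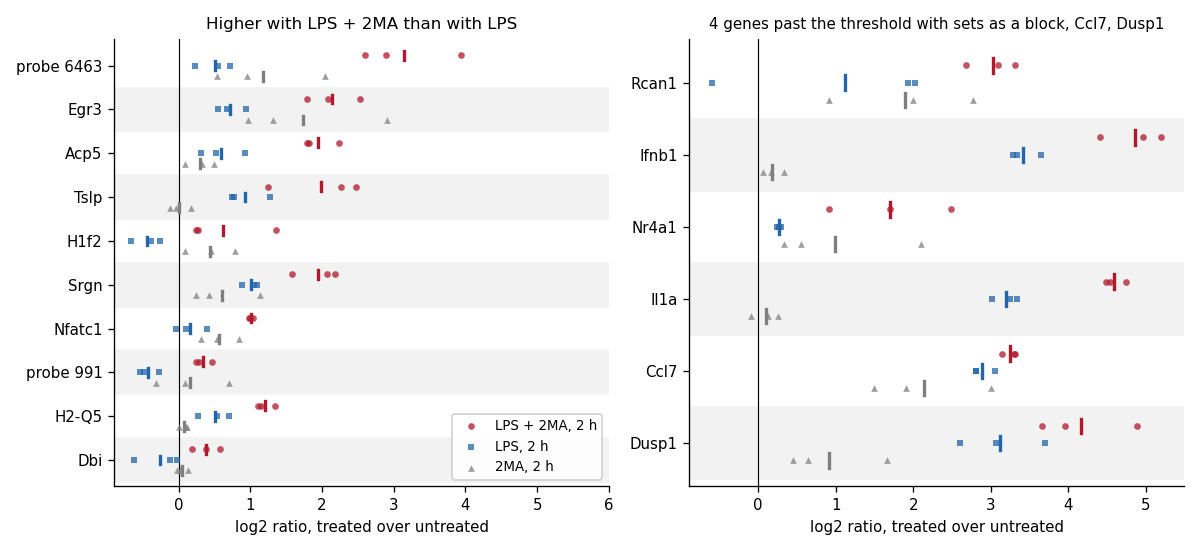
Log2 ratios of treated to untreated RNA by set for the 10 largest of the 11 genes higher with LPS plus 2MA than with LPS (left), and for 4 genes past the threshold with sets as a block, Ccl7 and Dusp1 (right). Points are set values of LPS plus 2MA, LPS and 2MA at 2 h, and bars are means of 3 sets. For Acp5, Srgn and Nfatc1 (mean of 2 probes) every LPS plus 2MA point lies right of every LPS and 2MA point.

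Most list members did not differ from LPS past the threshold. Egr3 was the one immediate-early factor of 21 to do so, and Nfatc1 the one calcium responsive gene of 20. Median differences were 0.46 over immediate-early factors, 0.34 over MAP kinase and G protein feedback genes, 0.26 over mRNA decay genes, 0.20 over antigen presentation, 0.16 over cytokines and 0.10 over type I interferon targets, beside 0.00668 over all genes. They were below 0 over Nrf2 and oxidative stress genes (-0.19), cholesterol genes (-0.10), cell cycle genes (-0.10), heat shock genes (-0.09) and purinergic genes (-0.07) among others. For Tnf the difference was 0.10 (95% confidence interval -0.79 to 0.98), for Nfkbiz -0.05 (-0.79 to 0.70), for Il1b 0.34 (-0.31 to 0.99) and for Il10 -0.62 (-1.15 to -0.09, adjusted p = 0.904). The intervals do not show that these genes respond alike.

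Against 2MA alone, the joint treatment differed in 594 genes (5.12%), 369 higher (3.18%) and 225 lower (1.94%). Most NF-kB, interferon and mRNA decay genes were higher: 10 of 13, 21 of 27 and 8 of 13, with no member of these lists lower. Il1a was higher by 4.49, Ifnb1 by 4.67 and Irf1 by 2.75. Of 19 cytokines 9 were higher, and 16 with sets as a block. The 594 were 1275 with sets as a block (633 higher, 642 lower), 224 fitted on the 2 groups alone (183 and 41), 314 without set 2 (232 and 82) and 367 without set 3 (247 and 120), so the excess of higher genes is not steady either.

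Hhex and Txnip lay on opposite sides of 0 under the 2 treatments. Hhex, a homeobox factor of blood and liver, had -1.22, -1.63 and -1.07 with LPS plus 2MA, against 0.23, 0.35 and 0.40 with 2MA, and -1.06, -1.29 and -0.39 with LPS. Its joint values lie below all 2MA sets (difference -1.64 ± 0.20, adjusted p = 9.65e-08). Txnip had -1.41, -2.39 and -1.27 with LPS plus 2MA, against 0.19, 0.20 and 0.67 with 2MA. Probe 617, unnamed here, had -0.53, 0.23 and -0.05 with LPS plus 2MA, against 1.54, 0.96 and 1.04 with 2MA, a difference of -1.29 (adjusted p = 0.00261) that was not called without set 1 (-0.91). All 2MA sets of this probe lie above every set of the joint treatment. Tsc22d3, which encodes a glucocorticoid-induced leucine zipper, Cnr2, Agfg2 and Slc40a1 were also lower than with 2MA. The Slc40a1 call was lost without set 1 (-1.35), set 2 (-1.31) or set 3 (-1.74).

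Set against the sum of the single responses on the log2 scale, the joint response passed the test in 2 genes (0.0173%), 1 above (0.00863%) and 1 below (0.00863%). Acp5 was 1.06 ± 0.21 above the sum (adjusted p = 0.0486), and this call was lost without set 2 (1.00) or set 3 (0.99). Ccl7 had 3.30, 3.31 and 3.15 with LPS plus 2MA, against 2.81, 3.05 and 2.81 with LPS and 3.00, 1.50 and 1.91 with 2MA. It lay below the sum by a log2 difference of -1.77 ± 0.27, which is not read here as a departure. For its 2 responding probes the single responses add up to 7.09 and 8.02. The largest value that the deposited ratios take is 6.64, which is below both sums. The joint values of these probes averaged 4.80 and 4.92, below that limit, and whether the scale bears on the shortfall was not tested. The third probe alone gave 0.08. Averaged over the probes of a gene, the highest sum was 5.96. Tslp was 1.06 ± 0.22 above the sum (adjusted p = 0.0852, and 0.00594 with sets as a block) and H2-Q5 0.63 (adjusted p = 0.0521, and 0.0126 with the block), so both calls rest on the block. The number was 12 with sets as a block, 0 fitted on the 3 groups alone, 5 without set 1, 1 without set 2 and 3 without set 3. At an unadjusted p under 0.05 it was 318 of 11593, fewer than the share of 0.05 expected where no gene departs. Median departures were -0.47 over NF-kB genes, -0.18 over immediate-early factors and 0.08 over interferon targets, beside 0.00 over all genes.

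Over the 3 times of the joint treatment, several immediate-early factors were highest at 1 h and most interferon-stimulated genes at 4 h. Between 1 h and 2 h, 208 genes rose (1.79%) and 139 fell (1.2%), 347 in all (2.99%), which were 166 without set 1 (106 and 60) and 167 without set 2 (113 and 54). Between 2 h and 4 h, 583 rose (5.03%) and 411 fell (3.55%), 994 in all (8.57%), which were 595 without set 2 (389 and 206). The falls were 213 without set 1. The times were separate arrays, and both differences use the same 2 h sets. Each time was set against untreated cells labelled with that time. In a difference between times, a change in treated cells and a change in untreated cells therefore cannot be told apart.

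Egr1 averaged 5.10 ± 1.04 at 1 h, 1.43 ± 1.35 at 2 h and 2.85 ± 0.48 at 4 h. Egr2 averaged 5.40, 2.77 and 0.71, and Nr4a1 3.54, 1.70 and -0.07 at those times. Egr2 and Nr4a1 were thus lower at each later time, while Egr1 was higher at 4 h than at 2 h by 1.41 (adjusted p = 0.242). Btg2, an anti-proliferative cofactor of mRNA deadenylation, averaged 4.11, 1.33 and 1.09, and Jun 0.91, -0.87 and -0.64. Of 21 factors 9 fell between 1 h and 2 h and none rose, a count of 3 without set 1. Between 2 h and 4 h 9 fell and 1, Klf6, rose (not called without set 2, 0.80), with 5, 3 and 2 falls without set 1, 2 or 3. The fall of Egr2 was not called without set 1 in the first interval (-2.14), nor in the second without set 1 (-2.46), set 2 (-1.96) or set 3 (-1.79). The fall of Nr4a1 between 1 h and 2 h was not called without set 1 (-1.35). Chka, choline kinase alpha, averaged 2.06, 0.19 and -0.77.

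In each interval most interferon targets rose. Ifit1 had 1.24, 1.70 and 1.31 at 1 h, 4.04, 4.12 and 3.64 at 2 h and 4.46, 4.41 and 4.90 at 4 h. The 1 h and 2 h sets are far apart, and the later sets are close, with no call for Ifit1 between 2 h and 4 h. Ifit2 averaged 0.04, 3.31 and 5.55 at 1, 2 and 4 h, Cmpk2, a nucleotide kinase, 0.50, 3.50 and 5.74, and Irgm2, an immunity-related GTPase, -0.25, 2.26 and 3.63. Ifnb1 itself averaged 3.31, 4.86 and 4.67. Of 27 measured targets 19 rose between 1 h and 2 h (median difference 1.27) and 20 between 2 h and 4 h (1.48), and none fell in either interval. Beside them, all genes had median differences of 0.00 and -0.02.

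Other genes had their larger rise after 2 h. The immunity-related GTPase gene Iigp1 was at 0.25 at 2 h, did not pass the test there, and was higher at 4 h by 3.69 ± 0.30 (adjusted p = 2.4e-11). Cfb, complement factor B, rose by 3.14 and Ms4a4c by 3.62 in that interval. Nos2 had 0.62, 0.64 and 0.19 at 2 h and 3.40, 3.05 and 2.59 at 4 h, after 0.05, 0.04 and -0.01 at 1 h. Il6 averaged 0.36, 2.51 and 5.50 at 1, 2 and 4 h. Of 17 antigen presentation genes 10 rose between 2 h and 4 h and 1 fell, with 6 rises without set 2. Among cell cycle genes 10 of 29 fell and 1 rose, with 5 falls without set 1 and 3 without set 2.

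The genes that set the joint treatment apart from LPS followed different courses. Acp5 averaged 1.70 ± 0.37 at 1 h, 1.95 ± 0.25 at 2 h and 2.42 ± 0.37 at 4 h. Tslp averaged 0.20, 1.99 and 2.13, and Nfatc1 0.41, 1.00 and -0.55. Egr3 averaged 2.75, 2.14 and 0.31, and probe 6463 averaged 3.51, 3.15 and 1.41. Acp5 and Tslp were thus still high at 4 h, while Nfatc1 fell by 1.55 between 2 h and 4 h (adjusted p = 4.77e-09) and Egr3 by 1.82 (adjusted p = 3.22e-05).

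**Figure D4:**
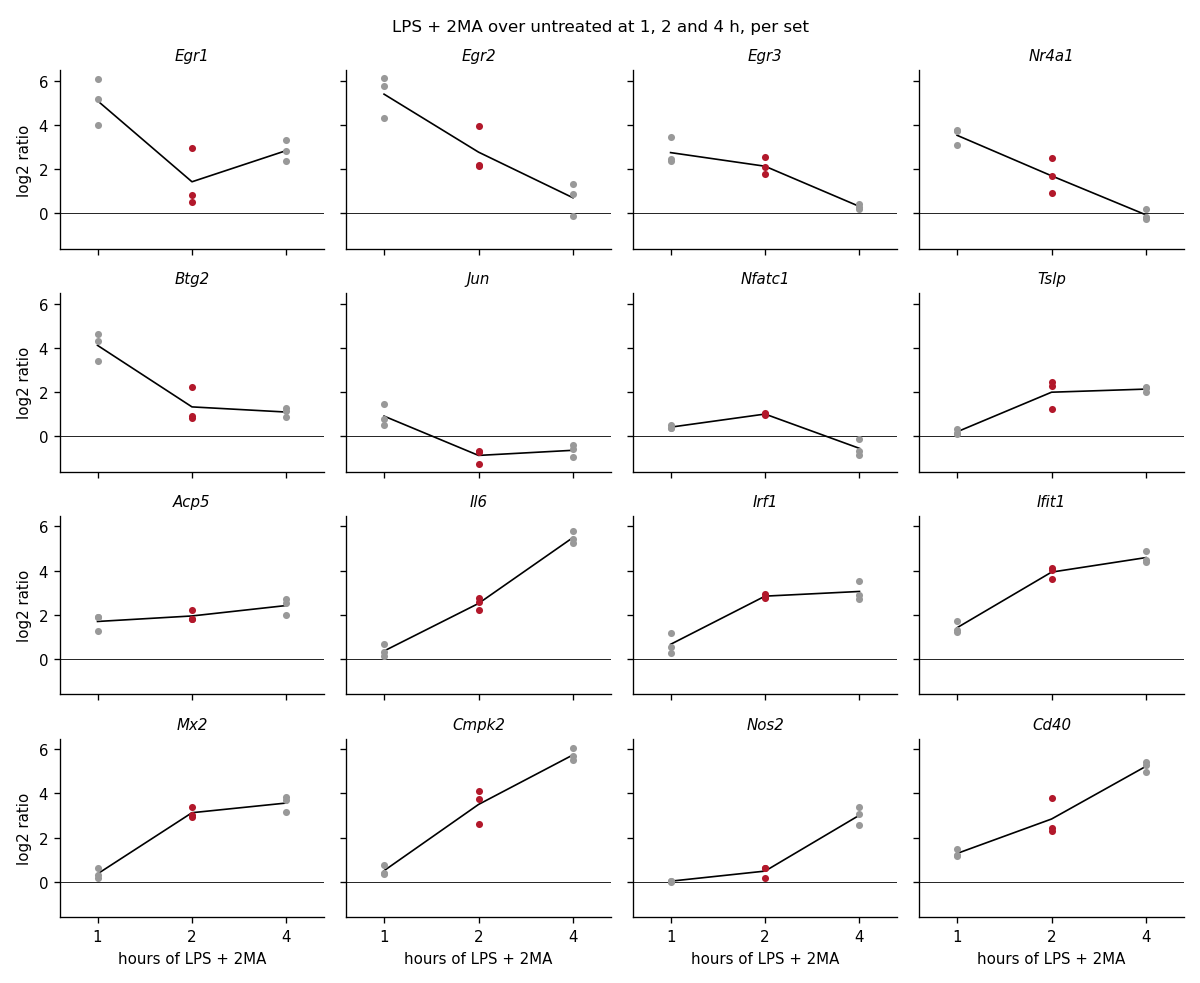
Log2 ratio of treated to untreated RNA at 1, 2 and 4 h of LPS plus 2MA for genes named in the text, with the 3 times spaced evenly. Points are set values, red at 2 h and grey at the other times, and lines join the means of 3 sets. Immediate-early genes such as Egr2 fall from left to right, while Cmpk2 climbs throughout and Ifit1 mostly between 1 h and 2 h.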

How the data were processed

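Each array measured treated against untreated RNA of RAW 264.7 cells in 2 dyes. The deposited values are log2 ratios, already processed by the authors before deposit; background correction and normalization are not given in the sources used here. That the scale is log2 was read from the values, since the largest equals log2 of 100 (6.64) and 14 values stand at that limit. The direction (treated over untreated) was set from the dyes per the labels, and the arrays of both dye orders correlated at -0.512 to -0.401 within the sets of LPS plus 2MA at 2 h before their signs were turned. Whether genes or arrays were centred is unknown, and the medians of nonzero values on the 6 arrays lay between -0.00202 and 0.0282.

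An exact 0 was treated as missing. A set value is the mean of both dye orders where both had one, so that a dye effect, which passed the test in 9465 of 11593 genes, cancels. Probes with at least 2 of 3 set values in each of 16 groups were kept (13698 of 16281), and probes of a gene were averaged. Probe names came from the platform annotation for 13738 probes with 1 gene, while 52 had several and 2491 none. Symbols were updated through RefSeq (GRCm38.p6). Limma 3.58.1 in R 4.3.3 fitted 1 mean per group to 48 set values (residual degrees of freedom 32), with two-sided tests and Benjamini-Hochberg adjustment at 0.05. Median SE was 0.112 against untreated cells and 0.159 between groups.

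Genes were named by rule: past the threshold with 1 sign on all 6 arrays, the 20 largest rises and 12 largest falls against untreated cells; for each difference, with 1 sign in all 3 sets, the 10 largest each way (5 between times); and members of the gene lists. Members and lists were chosen with earlier results of these data known. Sets were taken as paired by number for LPS (0.441, 0.505 and 0.15), 2MA (0.343, 0.747 and 0.415) and the joint treatment at 4 h (0.274, 0.606 and 0.342). In these groups every same-numbered pair of deviations correlated above 0.1. Set 1 of the joint treatment at 2 h nevertheless correlated better with another 2MA set than with set 1 of 2MA. The pairing with 2MA, and the block results that use it, are therefore less certain. At 1 h the correlations were 0.0912, 0.4436 and 0.1575, and sets 2 and 3 correlated best with their own number. Since set 1 lay below 0.1, the 1 h sets were not taken as paired. On simulated data the test against LPS recovered 43.3%, 91% and 100% of changes of 0.5, 1 and 2 on the log2 scale, and called 7 unchanged genes of 11593. The simulated noise was independent between set values and held no effect common to sets of 1 number. These rates therefore need not hold for the deposited data. One 2MA sample at 1 h, not used here, carries another dose unit in its description.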

Additional observations from a re-analysis of the deposited data

Results flagged for a closer look

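The joint treatment differed between times, by limma's test of the difference itself with Benjamini-Hochberg adjustment over 11593 genes. Between 1 h and 2 h the number was 347. Among those named, Ifit2 differed by 3.27, Cmpk2 by 3.00, Mx2, an interferon-induced antiviral GTPase, by 2.77, Ifit1 by 2.52 and Irgm2 by 2.51. Lower at 2 h than at 1 h were Egr1 (-3.67), Btg2 (-2.79), Egr2 (-2.62), Chka (-1.87) and the unnamed probe 11303 (-1.84).

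Between 2 h and 4 h the number was 994. Higher at 4 h were Iigp1 (3.69), Ms4a4c (3.62), the guanylate-binding protein gene Gbp8 (3.27), Slfn1 (3.23) and Cfb (3.14). Lower at 4 h were the transcription regulator Tsc22d1 (-2.31), Egr2 (-2.07), Herpud1, a gene of protein degradation at the endoplasmic reticulum (-2.02), Egr3 (-1.82) and the phosphate transporter Slc20a1 (-1.81).

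By the test of the departure from the sum of both single responses, 2 genes passed the threshold: Acp5 (1.06) above the sum and Ccl7 (-1.77) below it. For Ccl7 the sums of its 2 responding probes (7.09 and 8.02) exceed the largest deposited value (6.64). The joint values of these probes averaged 4.80 and 4.92, and whether the scale bears on the shortfall was not tested. Groups held 3 sets each, so no set was tested for standing apart from the others.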

How the results depend on the processing

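Fitted on the groups compared alone, the number of called genes was 948 against untreated cells, 2 against LPS, 224 against 2MA, 0 against the sum, 161 between 1 h and 2 h and 526 between 2 h and 4 h; that fit has fewer samples to estimate the spread. With sets as a replicate block the counts were 3096 (1436 up, 1660 down), 60, 1275, 12, 571 and 1401 in the same order. The 571 between 1 h and 2 h comes from sets that were not taken as paired. Fitting single arrays with a dye term gave 50 against LPS (40 up, 10 down), 21 against the sum and 590 between 1 h and 2 h. Against the sum, keeping exact zeros gave 4 and a robust prior 1, and against LPS single probes gave 6. Leaving out each set gave 1383 to 1685 against untreated cells, 4 to 7 against LPS, 314 to 431 against 2MA, 1 to 5 against the sum, 166 to 278 between 1 h and 2 h and 595 to 710 between 2 h and 4 h. Except where given, the cause was not tested, and the other alternatives kept each count within 1.5 times. Of 945 checks of single genes 899 kept direction and call, 45 lost the call, 29 of them against LPS, and 1 changed sign, the probe of Ccl7 that alone gave 0.0762 against the sum. The 3 sets of each group limit what can be resolved, with a median SE of 0.159 for differences between groups.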

Other observations

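A group of probes gave no set value with LPS plus 2MA at 2 h although it had all 3 set values with 2MA, and these probes belong to no comparison above. There were 14 of them, 9 above 0 with 2MA and 7 without a set value with LPS as well, against 1 probe with the opposite pattern. Among them, Acod1, which makes itaconate, had 3.56, 2.46 and 1.82 with 2MA, the neutrophil chemokine gene Cxcl2 had 3.50, 2.38 and 1.48, and Cxcl10, an interferon-induced chemokine gene, had 1.88, 2.06 and 0.60. These values are of single probes. A second probe of Cxcl10 had 4.39 and 4.17 in sets 1 and 3 with LPS plus 2MA, and Tnf and Ccl4, also among the 14, were measured by other probes.

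Histone genes, looked at after the value of H1f2 was seen and given as a description, had a median response of 0.07 with LPS plus 2MA, against -0.20 with LPS. Of 13 such genes measured, 11 had a difference from LPS above 0, with a range of -0.05 to 1.06. Their median was 0.16, beside 0.00668 over all genes. H1f2, whose value led to the choice, is counted in these values and was the 1 gene past the threshold, beside 0.0949% of all genes. The counts are therefore not evidence of a response of the family. With sets as a block, H2bc4 (0.85, adjusted p = 0.00902), H4c9 (0.62, adjusted p = 0.00462) and H2bc22 (0.52, adjusted p = 0.0496) passed as well, beside 60 of all 11593 genes.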
